A study of Clytia hemisphaerica and Astroides calycularis and Pocillopora acuta with 16 samples.

Results

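The genes described here are a pair of lipoxygenase orthologs, XLOC_020526 of the hydrozoan Clytia hemisphaerica and XP_027036755 of the coral Pocillopora acuta. They were chosen by identifier, and they were selected on their aboral against oral change, which runs in opposite directions in the 2 species. That contrast is therefore given for them as a description, with no test. Both identifiers were found, so the pair makes 2 of the 67007 gene models of the series, 1 of 18755 in Clytia and 1 of 19922 in Pocillopora. The files also held 28330 gene models of a further coral, Astroides calycularis, among them STRG.20980, which the study's ortholog column pairs with both genes and on which the choice did not depend. The lipoxygenase domain and a predicted signal peptide are annotated for XLOC_020526 in the study's lists, while XP_027036755 and STRG.20980 carry the name only through orthology. The study inferred ortholog pairs from reciprocal best hits and built trees for selected genes, with none shown for lipoxygenases. Orthology is taken here from its lists and was not tested.

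Lipoxygenases are enzymes with non-haem iron that add molecular oxygen to polyunsaturated fatty acids such as arachidonic acid. The hydroperoxides they form are precursors of oxylipins and eicosanoids, which act as local signals, and many members of the family also carry a PLAT/LH2 domain that binds lipids and membranes. Corals are known for lipoxygenase activity in their tissues, and for fusion proteins that join a lipoxygenase to a haem-containing enzyme.

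RNA was sequenced from planulae, the ciliated swimming larvae of cnidarians, to compare the aboral end, by which many planulae settle, with the oral end. The 16 libraries formed 8 groups of 2, with uncut larvae, aboral ends and oral ends in Clytia and Astroides, and aboral ends and oral ends in Pocillopora. The labels name no treatment or genetic change for any group, and each library held a pool of larvae or cut ends. The methods give the largest pools for Clytia and only a few cut ends per library for Pocillopora. The Pocillopora libraries were 1 aboral and 1 oral library from each of the parent colonies C5 and C3, which the study's methods give as phenotypes of the same genotype, so each colony stands for a single pool of larvae, and the reads were mapped to the genome of the related P. damicornis. Clytia libraries held 30129270 to 31043438 counts, Astroides libraries 23146999 to 26980344 and Pocillopora libraries 20256336 to 24838448. FoxQ2a, a transcription factor gene that marks the aboral pole of many larvae, matched the labels in all species. It stood at 121 and 151 CPM (a gene's count relative to the total of its library) at the aboral end and at 8.47 and 10.1 CPM at the oral end in Clytia (XLOC_014597), at 57.9 and 76.2 against 3.44 and 3.60 CPM in Astroides (STRG.21847), and at 23.99 and 18.4 CPM against 0.692 and 0.642 CPM in C5 and C3 larvae of Pocillopora (XP_027055233). Since the files held no gene lengths, levels are compared between libraries of a gene and never between genes or species. In pools of this kind, fewer cells of a type and less RNA per cell cannot be told apart.

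XLOC_020526 was by far higher at the aboral end of the Clytia planula. It had 1238 and 1205 CPM in the aboral libraries (38157 and 36319 counts), against 47.6 and 41.2 CPM in the oral libraries (1479 and 1273 counts). Uncut larvae had 518 and 494 CPM (15912 and 15153 counts). The 3 groups did not overlap, and the libraries of a group differed little, with means of 506 ± 16.96 CPM in uncut larvae, 1222 ± 22.8 CPM at the aboral end and 44.4 ± 4.58 CPM at the oral end (SD, n = 2 each). The mean level at the aboral end was 27.5 times that at the oral end, and the same-numbered libraries gave ratios of 25.98 and 29.3. On the log2 scale the fitted change, aboral over oral, was 4.83 ± 0.11 (SE). Of the 15599 Clytia genes that passed the filter on low counts, 79 had a larger change in that direction.

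XP_027036755 was lower at the aboral end of the Pocillopora planula. In larvae of colony C5 it had 3.86 CPM at the aboral end and 13.1 CPM at the oral end (90 and 283 counts), and in larvae of colony C3 it had 9.18 CPM at the aboral end and 25.7 CPM at the oral end (228 and 520 counts). All aboral values lay under all oral values, but the aboral C3 library came closer to the oral C5 library than the libraries of either end came to each other. The counts are small, and the exact Poisson 95% intervals, which cover counting error only, ran from 3.10 to 4.74 CPM and from 8.03 to 10.5 CPM in the aboral C5 and C3 libraries, and from 11.6 to 14.7 CPM and from 23.5 to 27.98 CPM in the oral C5 and C3 libraries. The oral level was 3.39 times the aboral level in C5 and 2.80 times in C3. With the colony as a block the fitted change, aboral over oral, was -1.60 ± 0.19 on the log2 scale (SE), and 450 of the 17164 genes tested in Pocillopora had a larger change in that direction.

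**Figure D1:**
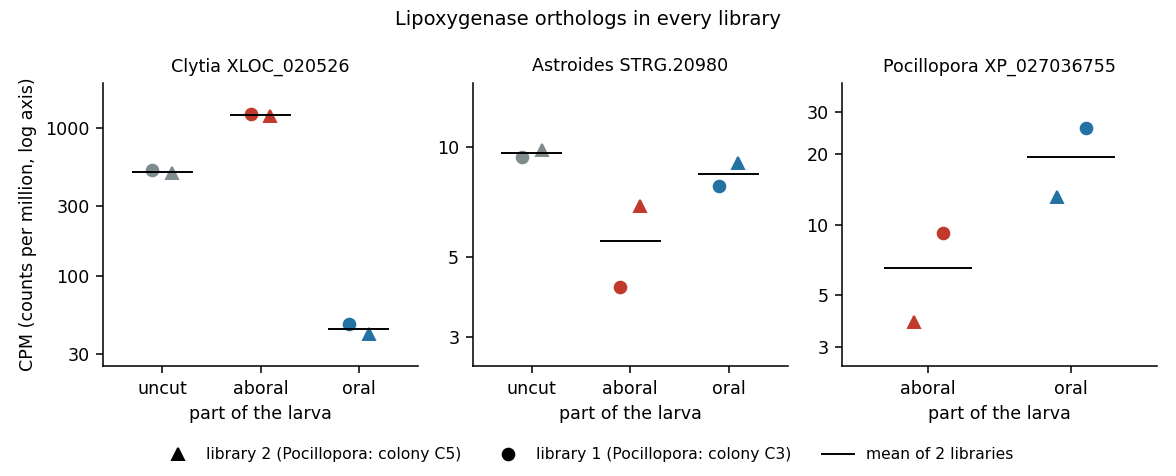
Level of XLOC_020526, STRG.20980 and XP_027036755 in CPM (log axis, a separate scale for each species) in every library, with a line at the mean of each group of 2. XLOC_020526 stands at 1205 to 1238 CPM at the aboral end and at 41.2 to 47.6 CPM at the oral end, with uncut larvae between them, whereas both coral genes lie lower at the aboral end, XP_027036755 in the larvae of each colony.

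The parent colony was not used in choosing the pair. XP_027036755 was lower in C5 than in C3 larvae at both ends, at 0.420 times the C3 level at the aboral end and at 0.509 times at the oral end. edgeR's quasi-likelihood test, with the end as a term and p-values adjusted over all genes tested (Benjamini-Hochberg, threshold 0.05), put the difference, C5 over C3, at -1.21 ± 0.19 on the log2 scale (SE), with an adjusted p of 0.0166. Of the other listed Pocillopora lipoxygenase genes, XP_027048285 also fell in C5 (-0.64 ± 0.13, adjusted p = 0.0344), and XP_027036057 stood at -0.11 on the log2 scale (adjusted p = 0.716). Thus 2 of the 3 listed genes were called lower in C5, where 9.89% of all genes tested were called lower. The colonies gave 1 pool of larvae each, so a difference between colonies and a difference between pools cannot be told apart. Without the end as a term the colony difference of XP_027036755 was not called (-1.16, adjusted p = 0.487). Leaving out any 1 of the 4 libraries also meant fitting without that term, so that the ends were unequally divided between the colonies, and the difference was then -2.28 to -0.22 and was not called (adjusted p = 0.303 to 0.909), and neither was any other gene of the species. The colony call of XP_027048285 was lost in the same fits. With other size factors, DESeq2 or no filter the colony difference of XP_027036755 passed, with adjusted p = 0.00408 to 0.0205.

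STRG.20980, the Astroides ortholog, lay on the side of the Pocillopora gene. It had 9.42 and 9.79 CPM in uncut larvae (218 and 247 counts), 4.11 and 6.90 CPM at the aboral end (111 and 186 counts) and 7.80 and 9.03 CPM at the oral end (186 and 243 counts). The ends did not overlap, but the aboral libraries differed 1.68-fold from each other, and the counting intervals of the higher aboral library (5.95 to 7.97 CPM) and the lower oral library (6.72 to 9.01 CPM) overlapped. The aboral against oral difference was -0.58 ± 0.27 on the log2 scale (SE) and did not pass the threshold (adjusted p = 0.327). Uncut larvae lay above both ends, at 1.38 times the mean CPM of the ends. The test set uncut larvae against the mean of the ends on the log2 scale, which lies under the mean CPM where the ends differ. That difference did not pass either (0.50 ± 0.22, adjusted p = 0.847). A difference that misses the threshold in groups of 2 does not show that the levels are alike. Aboral against oral and without a block, 0 of the 2 listed Astroides lipoxygenases passed in edgeR, where 6.99% of all genes tested were called (1485 genes). In DESeq2 0 passed as well. In each, 1 was under an unadjusted p of 0.05, a looser threshold at which the share of all genes was not counted. With the replicate number as a block, 1 of the 2 passed in edgeR (STRG.21680, adjusted p = 0.00972), where 2611 genes were called. For uncut larvae against the log2 mean of the ends 0 of 2 passed in both tools, where edgeR called 0.221% of all genes tested (47 genes, and 200 with the block). In both tools 0 of 2 were under an unadjusted p of 0.05.

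The study's lists hold 7 further Clytia genes with a lipoxygenase domain, all named as markers of epidermal cell clusters in its single-cell data. The study warns that the marker lists of its aboral epidermal clusters also hold genes that are high in other clusters. The cluster named aboral epidermis A, which names 5 of the 7, was picked as an aboral type with the help of these libraries, so those directions are not fully independent of the study's choice. All 7 passed the test between the ends, where 33.2% of all genes tested did. Of these, 6 fell at the aboral end, where 14.8% of all genes tested were called lower, and 1 rose, where 18.4% were called higher. The median change of the 7 was -0.45 on the log2 scale, against -0.01 over all genes tested.

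**Figure D2:**
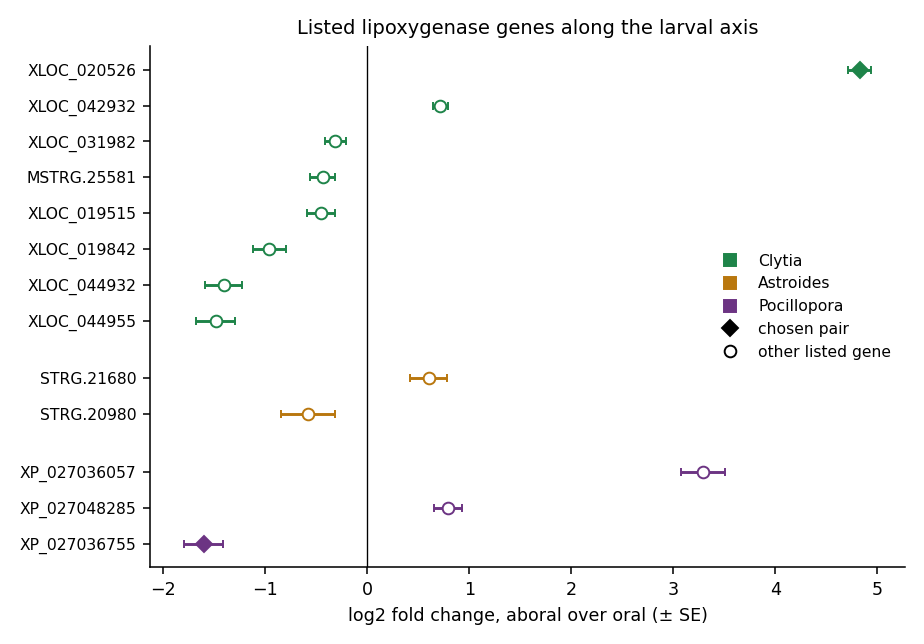
Log2 fold change, aboral over oral, of the 13 listed lipoxygenase genes, ordered by value within Clytia (8 genes), Astroides (2) and Pocillopora (3), with bars of 1 SE from the edgeR fit and filled diamonds for the pair chosen on this contrast. XLOC_020526 lies at 4.83 while 6 of the other 7 Clytia genes lie below 0, and XP_027036057 lies at 3.29 while XP_027036755 lies at -1.60.

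The largest falls were those of XLOC_044955 and XLOC_044932. XLOC_044955 had 196 and 142 CPM at the aboral end and 558 and 419 CPM at the oral end, a change of -1.49 ± 0.19 (adjusted p = 0.000663). XLOC_044932 had 283 and 216 CPM at the aboral end and 764 and 603 CPM at the oral end, a change of -1.41 ± 0.19 (adjusted p = 0.000723). Their counts moved together over the 6 libraries, with a root-mean-square distance of 0.0563 between the centred log2 profiles, and in both genes the second library was lower than the first in each group. XLOC_019842, at 519 and 375 CPM at the aboral end and 985 and 810 CPM at the oral end, fell by 0.96 ± 0.16 (adjusted p = 0.0025).

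Smaller falls were found for 3 genes. XLOC_019515 had 899.7 and 892 CPM at the aboral end and 1127 and 1402 CPM at the oral end (-0.45 ± 0.14, adjusted p = 0.0356). MSTRG.25581 had 790.4 and 818 CPM at the aboral end and 1020 and 1233 CPM at the oral end (-0.44 ± 0.13, adjusted p = 0.0289). These 2 genes had the most similar profiles among all pairs of the 8 listed genes, at a distance of 0.0276. XLOC_031982, which joins a lipoxygenase and a PLAT/LH2 domain, had 182 and 161 CPM at the aboral end and 218 and 222 CPM at the oral end (-0.31 ± 0.10, adjusted p = 0.0451). These 3 calls were lost without the first aboral library, without the second aboral library or without the second oral library, which left 4 of 7 genes called in each case, and that of XLOC_031982 also without the first oral library. Near-identical copies can share reads, and whether these genes are such copies was not tested, so the close pairs of profiles are uncertain as separate measurements.

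XLOC_042932, the other gene with a lipoxygenase and a PLAT/LH2 domain, was the only 1 of the 7 that rose. It had 285 and 291 CPM at the aboral end and 178 and 184 CPM at the oral end, a change of 0.72 ± 0.07 (adjusted p = 0.000208). Its libraries lay close together, and the same-numbered libraries gave ratios of 1.60 and 1.58, far under those of XLOC_020526.

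**Figure D3:**
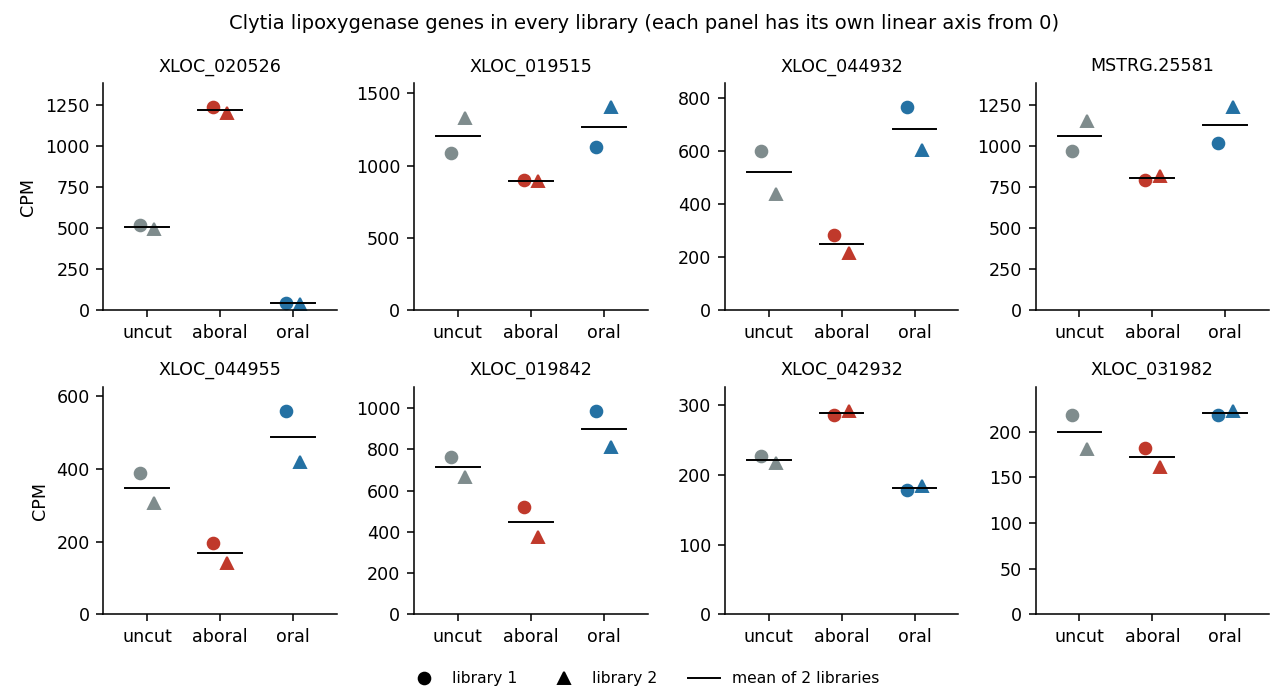
CPM of the 8 listed Clytia lipoxygenase genes in uncut, aboral and oral libraries, each panel on its own linear axis from 0 and with a line at the mean of each group of 2. The aboral mean is the highest for XLOC_020526 and XLOC_042932 (285 and 291 CPM in its aboral libraries) and the lowest for the other 6 genes. For XLOC_031982 the first aboral library (182 CPM) lies just above the second uncut library (181 CPM).

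The orthologs of XLOC_042932 lay on the same side in all 3 species, unlike those of XLOC_020526. STRG.21680 of Astroides had 228 and 270.5 CPM at the aboral end and 145 and 192 CPM at the oral end, a difference of 0.60 ± 0.18 that did not pass without a block (adjusted p = 0.12) and passed with the replicate number as a block (0.61, adjusted p = 0.00972). Its other alternatives gave adjusted p = 0.0552 to 0.578. XP_027048285 of Pocillopora rose. It had 475 and 657 CPM at the aboral end of C5 and C3 larvae, against 264 and 400.3 CPM at the oral end (0.79 ± 0.13, adjusted p = 0.0353). The ratio between the ends was 1.80 in C5 and 1.64 in C3. In the same 4 libraries the ends of XP_027036755 were ordered the other way in each colony.

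A further Pocillopora gene, XP_027036057, had the largest aboral excess of the 3 listed Pocillopora lipoxygenases. It carries a lipoxygenase domain and a predicted signal peptide, and the study's list names no Clytia or Astroides ortholog for it. It had 560 and 739.5 CPM at the aboral end of C5 and C3 larvae, against 75.5 and 57.7 CPM at the oral end, a change of 3.29 ± 0.22 (adjusted p = 0.00617). The ratio between the ends was 7.42 in C5 and 12.8 in C3. The study listed this gene as aboral from these libraries, so its direction is not independent evidence. Both listed genes beside XP_027036755 were thus called higher at the aboral end, where 3.82% of all genes tested were. Neither call was made without the colony block or without any 1 library, when no gene of the species was called, and XP_027048285 then ran from 0.47 to 1.19 without any 1 library.

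Uncut Clytia larvae lay between the ends for XLOC_020526, nearer to the oral level. On a linear CPM scale set to 1 at the aboral mean and 0 at the oral mean, the uncut mean lay at 0.392, and the same-numbered libraries gave 0.396 and 0.389. The uncut level was 0.80 times the mean of the ends. Over the 1124 Clytia genes called higher at the aboral end by more than 2-fold, the median position was 0.429, with quartiles at 0.374 and 0.483, so XLOC_020526 lay within the middle of their range. The other 7 lipoxygenases, 6 of them higher at the oral end, had positions of 0.158 to 0.442, with a median of 0.378. Over the 524 Clytia genes called higher at the oral end by more than 2-fold, the median position was 0.474, with quartiles at 0.398 and 0.544. Of the 7 only XLOC_044932 (0.378) and XLOC_044955 (0.442) fell by more than 2-fold, so the medians of these sets are not directly comparable. XLOC_019515 (0.158) and MSTRG.25581 (0.214) lay nearest to the oral level, while for XLOC_031982, whose ends differ little, the libraries gave -0.02 and 0.68 and thus no firm position. Uncut Pocillopora larvae were not analysed here, so XP_027036755 has no such position.

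**Figure D4:**
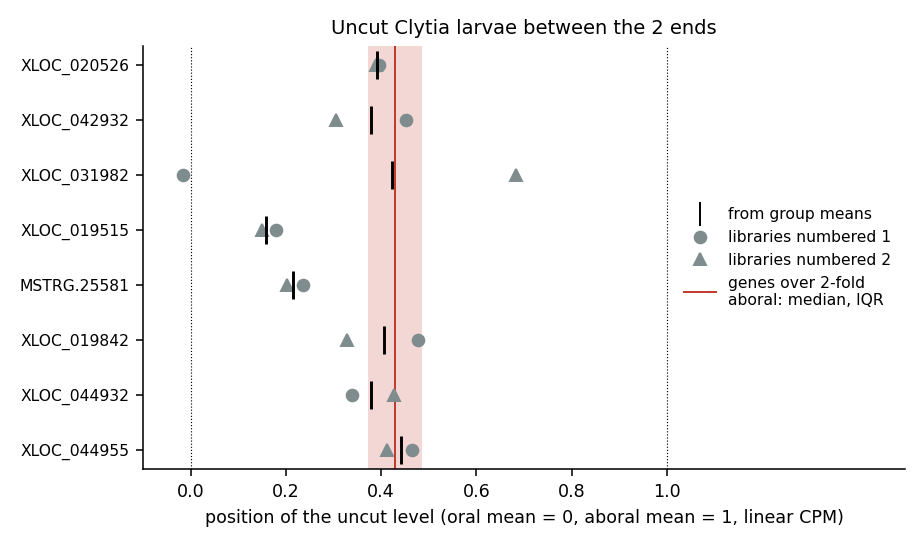
Position of the uncut Clytia level between the aboral mean (1) and the oral mean (0) on the linear CPM scale for the 8 listed lipoxygenase genes, from group means (bars) and from same-numbered libraries (symbols), with the median (0.429) and quartiles of the 1124 genes over 2-fold aboral as a line and band. XLOC_020526 lies at 0.392 with its libraries almost on the same point, and XLOC_031982 has the widest gap between libraries. No band is drawn for genes over 2-fold oral, although 6 of the other 7 lipoxygenases are higher at the oral end.

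In the study's single-cell data XLOC_020526 is a marker of 3 Clytia cell clusters, HFRIamide cells, which are neurons named after a neuropeptide, and the clusters named aboral epidermis A and epidermis muscle enriched. It was the only gene that the HFRIamide list shared with either epidermal list, whereas the epidermal lists shared 74 genes with each other. For its aboral epidermal clusters, the study warns that the marker lists also hold genes that are high in other clusters. It adds that these clusters may contain barcodes carrying ambient mRNA. Whether this bears on the epidermal marker status of XLOC_020526 was not tested. The study picked HFRIamide cells as an aboral type with the help of these libraries, so the direction of that list is not independent evidence. All 13 of its other tested genes were called higher at the aboral end, where 18.4% of all genes tested were, with a median change of 4.27, and their summed level ran from 559 to 573 CPM at the aboral end and from 48.6 to 54.2 CPM at the oral end. XLOC_020526 ranked 3 of 14 in this list by log2 fold change.

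The HFRIamide precursor itself (XLOC_034880) had 175 and 194 CPM at the aboral end and 17.7 and 21.4 CPM at the oral end (3.28 ± 0.12, adjusted p = 4.62e-07). VIAAT/VGAT (XLOC_033747), which loads GABA and glycine into synaptic vesicles in other animals, changed by 5.80 ± 0.27, and BGT-1/SLC6A12 (XLOC_030751), a transporter of GABA and betaine in mammals, by 4.42 ± 0.19. The TauD genes, which carry a taurine dioxygenase domain, changed by 4.41 ± 0.22 (TauDa, MSTRG.12764) and 5.36 ± 0.26 (TauDb, XLOC_041385). The oral libraries together held only 10 counts of VIAAT/VGAT and 15 of TauDb, so these folds rest on few oral counts. Changes near that of the precursor were those of ARV1 (XLOC_002774, 3.10 ± 0.13) and the homeobox gene UNC4 (XLOC_039146, 3.27 ± 0.17). The smallest change among the 13 genes was 2.44. Uncut larvae lay at positions of 0.292 to 0.470 between the ends over the 13 genes, a range that holds the 0.392 of XLOC_020526.

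The epidermal lists were mixed in direction. Without lipoxygenases, aboral epidermis A had 161 tested genes, 45 called higher and 64 called lower at the aboral end (18.4% and 14.8% of all genes tested), with a median of -0.24, and a summed level of 296000 to 305900 CPM at the aboral end and 268300 to 269000 CPM at the oral end. Epidermis muscle enriched had 794 tested genes, 365 higher and 148 lower against the same shares of all genes, with a median of 0.27, and a summed level of 285200 to 286300 CPM at the aboral end and 253900 to 257300 CPM at the oral end, with 1 gene at 0 at each end. Each epidermal list names 5 of the 7 other lipoxygenases. XLOC_020526 ranked 12 of 167 and 4 of 800 in these lists by log2 fold change, both counted with the lipoxygenases. The share that each cell type has in the level of XLOC_020526 was not tested.

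**Figure D5:**
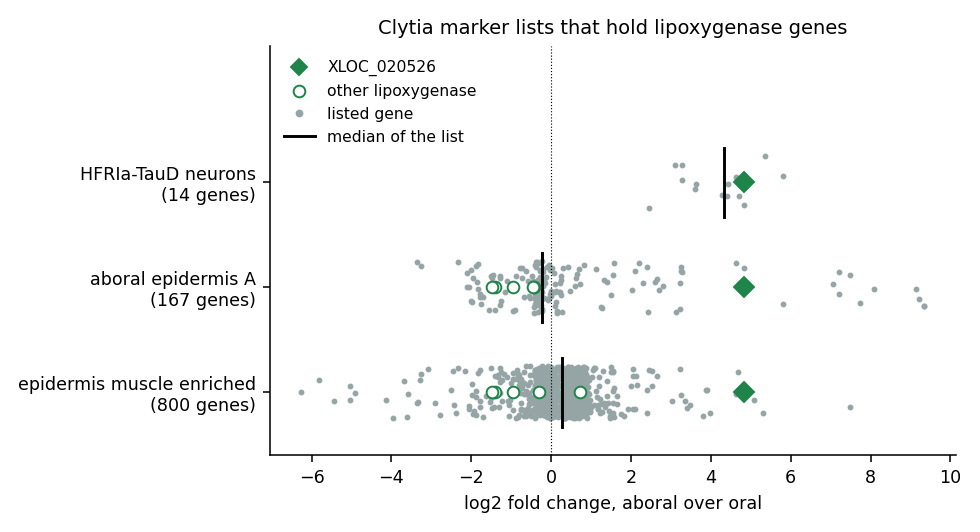
Log2 fold change, aboral over oral, of the tested genes of 3 Clytia marker lists (points, scattered vertically for display), with the median of each list as a line, XLOC_020526 as a diamond and other lipoxygenases as open circles. XLOC_020526 lies at 4.83 in all 3 lists, near the median of the HFRIamide (HFRIa-TauD) list and far above the medians of the epidermal lists.

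Markers of cell classes moved with the ends in Pocillopora beside XP_027036755. All 3 gastroderm markers fell at the aboral end, where 4.22% of all genes tested were called lower, with a median of -0.73 and a summed level of 1728 to 2218 CPM at the aboral end and 4219 to 4346 CPM at the oral end. Of the 2 digestive filament markers 1 fell, and their summed level was 96.4 to 106 CPM at the aboral end and 189 to 196 CPM at the oral end. Of the 10 epidermal, specialized epidermis, secretory and cnidocyte markers 0 were called in edgeR and in DESeq2, with 0 and 2 under an unadjusted p of 0.05, and of 5 neural markers 1 rose and 1 fell. The lists of aboral types, which the study picked with these libraries, rose in 18 of 24 apical cell genes and 32 of 41 gland mucous genes, where 3.82% of all genes tested were called higher. No gastroderm or digestive filament marker was at 0. The part of these classes in the level of XP_027036755 was not tested.

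Between the colonies 0 of the 3 gastroderm markers were called in edgeR and in DESeq2, with 1 under an unadjusted p of 0.05 in each and a median difference, C5 over C3, of 0.05. Both specialized epidermis markers were called higher in C5, by a median of 3.99, where 9.35% of all genes tested were. Calls in C5 were also made for 1 of 3 epidermal markers (higher), 1 of 3 cnidocyte markers (higher), 1 of 5 neural markers (lower), 2 of 24 apical cell genes (higher) and 11 of 41 gland mucous genes (9 higher, 2 lower). Of all genes tested 9.35% were called higher and 9.89% lower in C5.

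In Astroides, beside STRG.20980, both digestive filament markers fell at the aboral end, where 3.51% of all genes tested were called lower, with a summed level of 20.3 to 20.5 CPM at the aboral end and 71.5 to 89.2 CPM at the oral end. The 3 gastroderm markers had a median of -0.22 and a summed level of 1016 to 1112 CPM at the aboral end and 1331 to 1446 CPM at the oral end. Of the 7 gastroderm, specialized epidermis and secretory markers 0 were called in edgeR and in DESeq2, with 2 and 3 under an unadjusted p of 0.05. Of 3 epidermal markers 1 fell, of 3 cnidocyte markers 1 rose, and of 5 neural markers 1 rose and 1 fell. Apical cell genes rose in 25 of 28 cases and gland mucous genes in 31 of 38, where 3.47% of all genes tested were called higher. The study picked both as aboral types with the help of these libraries, so their direction is not independent evidence. The part of these classes in the level of STRG.20980 was not tested.

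The genes whose profiles were most like those of the pair were taken by the root-mean-square distance between centred log2(CPM + 1) values, among genes with a mean of at least 10 CPM. For XLOC_020526, over 6 libraries and 8676 genes, they were XLOC_007782 (0.0653), MSTRG.25427 (0.0802), XLOC_026868 (0.102), XLOC_015785 (0.129) and XLOC_040584 (0.147). Of these only XLOC_015785 is annotated in the study's lists, as CRHR1, a receptor of the secretin family. It had 40.5 and 37.2 CPM at the aboral end and 0.354 and 0.226 CPM at the oral end. The next annotated genes were the secreted protein gene PF1_3 (XLOC_041127, 0.148), XLOC_011471 with a Fz domain (0.149), MSTRG.3476 with Fz and galactose-binding lectin domains (0.156) and XLOC_001843 with a 2OG-Fe(II) oxygenase domain (0.17). XLOC_011471 had 791 and 731 CPM at the aboral end and 36.1 and 33.1 CPM at the oral end. Since the pseudocount compresses low values, genes with larger fold changes can stand near XLOC_020526 in this measure.

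For XP_027036755, over 4 libraries and 10744 genes, the nearest genes were XP_027047200 (0.0581), XP_027049766 (0.0608), XP_027048511 (0.0799), XP_027060078 (0.0993) and XP_027051541 (0.101), none of them annotated in the study's lists. XP_027047200 had 17.7 and 35.99 CPM at the aboral end of C5 and C3 larvae, against 49.1 and 90.9 CPM at the oral end. The nearest annotated genes stood farther off. They were XP_027039790 (0.349) and XP_027047213 (0.441) with trypsin domains, XP_027057931 with a WSC domain (0.509), XP_027058731 with a transferrin domain (0.518) and the T-box gene XP_027055802 (0.559). Only 145 of the 10744 genes are annotated in these lists, against 1432 of 8676 in Clytia.

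Other enzymes that release or convert fatty acids were described beside the lipoxygenases. The lists held 19 such genes in Clytia, of which 12 rose and 6 fell at the aboral end (18.4% and 14.8% of all genes tested), but the study had listed 8 of them for the ends in these libraries. Of the 11 that it had named as cell cluster markers, 6 rose and 5 fell, against the same shares of all genes. The class 3 lipase XLOC_019492, a type of enzyme that frees fatty acids from lipids, had 2456 and 2600 CPM at the aboral end and 20.2 and 15.3 CPM at the oral end (7.20 ± 0.17, adjusted p = 6.01e-08). The class 3 lipase MSTRG.5390 had 43.5 and 49.4 CPM at the aboral end and 2.77 and 3.78 CPM at the oral end (3.87 ± 0.18, adjusted p = 1.89e-06). Among those listed for the ends, the cytochrome P450 gene XLOC_028297, with only 6 and 12 counts at the oral end, changed by 6.06 ± 0.27. The animal haem peroxidase gene XLOC_044475, with 48 and 37 counts at the aboral end and 4 and 3 counts at the oral end, changed by 3.62 ± 0.39.

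Patatin-like phospholipases, which release fatty acids from membrane lipids, were measured as orthologs in all species. XLOC_038886 of Clytia rose (96.2 and 84.6 CPM at the aboral end, 64.8 and 55.8 CPM at the oral end, 0.63 ± 0.10, adjusted p = 0.0022). XP_027051351 of Pocillopora rose as well (377 and 341 CPM at the aboral end of C5 and C3 larvae, 224 and 176 CPM at the oral end, 0.87 ± 0.13, adjusted p = 0.0262), and STRG.8634 of Astroides did not pass (0.12 ± 0.17, adjusted p = 0.819). The MAPEG family includes membrane enzymes that act on lipoxygenase products in mammals. Its Clytia gene XLOC_011068 fell (36.01 and 32.7 CPM at the aboral end, 53.2 and 43.1 CPM at the oral end, -0.44 ± 0.12, adjusted p = 0.026), while its orthologs stood at 0.99 ± 0.32 in Pocillopora (XP_027044334, adjusted p = 0.128) and at -0.20 ± 0.20 in Astroides (STRG.41592, adjusted p = 0.735). The phospholipase genes named PA2-like2 did not pass either, at 0.01 ± 0.40 in Astroides (STRG.17610) and -0.60 ± 0.28 in Pocillopora (XP_027047046).

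In the corals most of the listed lipid enzymes had been listed by the study for the ends. Of 14 tested in Pocillopora 7 rose and 0 fell, where 3.82% and 4.22% of all genes tested did. Of 12 tested in Astroides 5 rose and 2 fell, where 3.47% and 3.51% did. The called genes with the largest changes in Pocillopora included the cytochrome P450 gene XP_027054471, which had only 31 and 66 counts at the aboral end of C5 and C3 larvae, against 2 and 0 counts at the oral end, so that its fold is not given. The others were the lipase XP_027051091 (4.78 ± 0.48) and the cytochrome P450 genes XP_027056946 (2.95 ± 0.30) and XP_027047911 (2.88 ± 0.17). Without any 1 library none of these calls was made, and XP_027056946 ran from 1.83 to 4.48. In Astroides they were those of the cytochrome P450 gene STRG.21862 (7.10 ± 0.28, with only 6 and 11 counts at the oral end) and the haem peroxidase genes STRG.6135 (6.43 ± 0.38) and STRG.28599 (3.62 ± 0.16). Also among them was the cytochrome P450 gene STRG.5278 (-3.49 ± 0.49), which had only 7 and 3 counts at the aboral end and 55 in each oral library. Its call was lost without the second aboral library (-3.04, adjusted p = 0.0607), and it was called under its other alternatives, with adjusted p = 1.85e-05 to 0.0357. Of the 4 coral genes of each species that were listed as cell markers, 1 rose in Pocillopora, the phospholipase XP_027051351, and 0 passed in Astroides in edgeR or DESeq2, with 0 under an unadjusted p of 0.05.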

How the data were processed

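The values were raw counts per gene model, 1 deposited file per library, which the authors made with STAR (named in the submitters' processing notes) in its gene count mode; the strand setting was not given in the sources used here, so antisense or overlapping genes cannot be told apart. The files held no names, coordinates or lengths, 0 IDs matched the reference gene table, and domains, orthologs and marker lists came from the study's lists. Each species was fitted in R 4.3.3 with edgeR 4.0.16 (filterByExpr by group, TMM, glmQLFit in legacy mode, quasi-likelihood tests, two-sided), with Benjamini-Hochberg adjustment over all genes tested (15599 in Clytia, 21254 in Astroides, 17164 in Pocillopora) and a threshold of 0.05. Clytia and Astroides fits held 6 libraries and no block, and the Pocillopora fit held 4 libraries with the colony as a block (1 residual degree of freedom). Same-numbered Clytia and Astroides libraries were taken as paired for the ratios, the positions and the alternative fits with a replicate block. The reason is that the study's methods count their material together for each biological replicate. The main fits of these species leave that pairing out, so calls and missing calls there do not use it. Differences between replicates correlated across genes at r = 0.369 to 0.548 between groups in Clytia, 0.258 to 0.716 in Astroides and 0.828 in Pocillopora. The study calls the libraries biological replicates without stating separate cultures for all, so p-values measure only the spread between these libraries. CPM used total counts. DESeq2 1.42.0 was an alternative. The pair and all lists were chosen with earlier results of these data known. Genes named were the pair, all listed lipoxygenases, FoxQ2a, HFRIamide list genes with a short name (not all of them are reported here), the 4 called lipid enzymes with the largest change per species with every MAPEG, phospholipase and class 3 lipase gene, and the 5 nearest and 5 nearest annotated profiles of each of the pair. The authors' fold changes and p-values were not used.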

Additional observations from a re-analysis of the deposited data

Results flagged for a closer look

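In 4 pairs of orthologs, among the named lipoxygenases and lipid enzymes, every aboral against oral pair of libraries moved one way in 1 species and the opposite way in the other. The share of such pairs among all orthologs was not counted, so the 4 are only described. XLOC_020526 of Clytia (4.83) and XP_027036755 of Pocillopora (-1.60) were 6.43 apart on the log2 scale, a gap for which the pair was chosen. XLOC_020526 and STRG.20980 of Astroides (-0.58) were 5.41 apart. In the MAPEG family, XLOC_011068 of Clytia (-0.44) minus XP_027044334 of Pocillopora (0.99) was -1.44, and STRG.41592 of Astroides (-0.20) minus XP_027044334 was -1.20. These differences between species were not tested. The ends of STRG.41592 overlapped, and its second pair of libraries stood at only -0.065 on the log2 scale. Of the genes outside the chosen pair, XLOC_011068 passed the threshold between the ends of its own species, and STRG.20980, XP_027044334 and STRG.41592 did not.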

How the results depend on the processing

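The change of XLOC_020526 stayed between 4.78 and 4.83 under other scalings, tests, filters, the replicate block (4.83) and the ratio of mean CPM, and between 4.71 and 4.94 without any 1 library. That of XP_027036755 stayed between -1.61 and -1.57, and stood at -2.37 without aboral C3, -1.02 without aboral C5, -0.905 without oral C3 and -1.99 without oral C5, where the colony block was not kept. STRG.20980 was not called under any alternative (aboral against oral -1.03 to -0.27, uncut 0.33 to 0.70 without any 1 library). The colony difference of XP_027036755 was -1.16 and not called without the end as a term, and -1.73, -0.51, -0.22 and -2.28 in the same order of left-out libraries, again without that term. Of the other Clytia lipoxygenases 7 were called under each alternative but 4 to 7 without any 1 library. In Astroides 1 was called with the replicate block and 0 otherwise, and the block changed no other lipoxygenase call. In Pocillopora 0 were called without the block or without any 1 library. Over all genes the aboral against oral count in Astroides was 2611 with the block against 1485, and 520 to 1099 without any 1 library, and in Pocillopora it was 0 without the block against 1381. The colony count was 87 without the end as a term and 0 without any 1 library against 3302, and the Astroides uncut count was 208 with DESeq2, 200 with the block and 8 to 32 without any 1 library against 47. The alternatives for the other genes named were added after the data were seen. There, of 120 Clytia values without 1 library 3 lost their call, and 0 of 99 others did. In Astroides 1 of 48 lost its call and 6 turned sign without 1 library, and 2 of 40 others turned sign. In Pocillopora 28 of 40 lost their call and 2 turned sign without 1 library, and 7 of 40 others lost their call, all in the fit without the block. Signs turned only for genes that were not called. XP_027036057 between colonies stood at 2.37 without aboral C3 and 0.37 without oral C5. Without any 1 library STRG.17610 ran from -0.553 to 0.590, STRG.8634 from -0.026 to 0.276 and STRG.41592 from -0.448 to 0.078, and STRG.17610 stood at -0.010 without a filter and -0.015 with end libraries only.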
